A study of Mus musculus with 8 samples.

Results

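Markers of neural progenitors and neurons were followed through the conversion of mouse embryonic stem cells (ESCs) into cells of a testis-like culture. The set holds 9 genes that were chosen by name as neural progenitor and neuron markers, Sox1, Sox3, Pax6, Nes, Tubb3, Ncam1, Map2, Dcx and Ngfr, among 46078 gene IDs counted in 8 RNA-sequencing libraries. Of these 9 genes, 8 passed the filter on low counts and Dcx did not. The tcESCs are a male C57BL/6 ESC line (XY;tesco-cfp) carrying a CFP reporter under the TESCO enhancer of Sox9. The tc;Sf1ESCs (XY;tesco-cfp;Sf1) are 1 G418-selected clone of that line that received a plasmid with Sf1, the gene Nr5a1. SCLCs are CFP-positive cells sorted at day 12 from cultures of tc;Sf1ESCs treated with CHIR99021, BMP7 and FGF9 after a first step with TTNPB and CHIR99021, so they carry both the reporter and the transgene. The todPGCLCs are germ cell-like cells of another male C57BL/6 line (XY;Prdm1-gfp), sorted as GFP-positive at day 6 from organoids in which epiblast-like cells were aggregated with testis-like somatic cells. ESC libraries of the Prdm1-gfp line were not analysed here, so in every comparison of todPGCLCs the line and the cell state cannot be told apart. Each group has 2 libraries, described as biological duplicates.

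The early ectoderm becomes neural when BMP signals are low, and SoxB transcription factors such as SOX1 and SOX3 are switched on in the neural plate, followed by regional factors such as PAX6. Neural progenitors then build the intermediate filament nestin (Nes), and neurons that leave the cell cycle use neuronal tubulin (Tubb3) and the microtubule-binding proteins MAP2 and doublecortin (Dcx). Mouse ESCs transcribe several of these genes at low levels before they commit to any lineage, and not all of the 9 are confined to neural cells. Pax6 is also a gene of the eye and the pancreas, Nes is used in muscle and vessel precursors, and Ngfr, the low-affinity neurotrophin receptor p75, is used in mesenchyme.

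The genes lie on 7 chromosomes of GRCm38 (GENCODE M21). Sox1 (chr8:12395295-12400126) and Sox3 (chrX:60891366-60893430) each have 1 exon. Pax6 lies at chr2:105668900-105697364, Nes at chr3:87971078-87980451, Tubb3 at chr8:123411424-123422015 and Ncam1 at chr9:49502136-49798925. Map2 lies at chr1:66175273-66442583, Dcx at chrX:143855842-143933311 and Ngfr at chr11:95568818-95587735. All are protein-coding. An antisense gene overlaps 4.81% of the exon bases of Ncam1 and another 0.754% of those of Map2, and a microRNA gene lies within 1.78% of the exon bases of Sox1. Whether the counting used strand is not given in the sources used here, although the libraries were strand-specific.

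The libraries held 25411033 to 30680191 counts on genes, at which 3 counts are 0.0978 to 0.118 CPM (counts scaled to library size). Intervals and floors of this kind cover counting error only. The SD of the log2 difference between the 2 libraries of a group was 0.310 to 0.378 in 3 groups and 0.518 in SCLCs, whose libraries differed most. The targeted gene Nr5a1 had 1 and 0 counts in tcESCs, 52 and 30 in tc;Sf1ESCs, 341 and 535 in SCLCs and 6 and 5 in todPGCLCs, in the order of the labels. Pluripotency genes summed to 5767 to 6732 CPM in the 4 ESC libraries, 1195 and 1024 in SCLCs and 3993 and 3628 in todPGCLCs, and germ cell genes were highest in todPGCLCs (985 and 1007 CPM against 430 to 581 elsewhere). Sertoli cell genes summed to 496 and 491 CPM in SCLCs, 113 and 138 in todPGCLCs and 14.7 to 18.7 in ESCs. Of the SCLC sum 432 and 451 CPM came from 1 gene, Gata4, and of the todPGCLC sum 94.9 and 116 CPM came from Dmrt1. Between todPGCLCs and SCLCs 3 genes of this list were higher and 3 lower of 8 tested, against 18.5% and 19.5% of all genes. Against tcESCs 5 of 7 tested were higher in SCLCs and 0 lower, against 24.3% and 18.3% of all genes. Sox9, whose enhancer drives the reporter used in the sort, was among those higher, with 206 and 130 counts in SCLCs against 2 and 8. Sox9 and Cldn11 passed the filter only through SCLCs. Fshr had 0 counts in both SCLC libraries, Amh 10 and 22 and Dhh 5 and 1. Marker genes of visceral endoderm summed to 2773 and 4697 CPM in SCLCs, 33.5 and 46.9 in todPGCLCs and 14.7 to 17.3 in ESCs. Those of mesenchyme summed to 1217 and 1123 CPM in SCLCs, 52.7 and 51.3 in todPGCLCs and 8.55 to 11.5 in ESCs. Single genes made up much of the SCLC sums, Cubn with 1097 and 2202 CPM of the first and Pdgfra with 764 and 911 CPM of the second. Trophectoderm genes summed to 820.4 and 1055 CPM in SCLCs, 329.6 and 392 in todPGCLCs and 90.2 to 132.7 in ESCs. Of the SCLC sum 353 and 441 CPM came from Krt8 and 389 and 487 CPM from Krt18. Their part in the results below was not tested.

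Promoters are shown for 4 of the genes, a pair whose libraries of both differentiated groups lay above all ESC libraries (Pax6, which was called, and Dcx, which was outside the fits) and a pair that was called lower in SCLCs than in each of the other groups (Tubb3 and Ngfr). Sox1 was also called lower in SCLCs than in each of the others, and SCLCs were last without being called against the next group for Sox3 and Map2. The sequences come from RefSeq (GRCm38.p6), run 5′ to 3′ on the strand of the gene and stop before its annotated start, and capitals mark CpG dinucleotides. They lie at chr2:105668646-105668895 (plus strand), chrX:143933312-143933469 (minus strand), chr8:123411303-123411423 (plus strand) and chr11:95587736-95587948 (minus strand).
Pax6: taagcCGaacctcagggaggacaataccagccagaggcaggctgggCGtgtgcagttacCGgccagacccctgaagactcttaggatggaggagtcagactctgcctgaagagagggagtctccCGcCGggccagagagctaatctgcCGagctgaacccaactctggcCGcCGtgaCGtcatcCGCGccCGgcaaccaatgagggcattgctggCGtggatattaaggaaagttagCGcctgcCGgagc
Dcx: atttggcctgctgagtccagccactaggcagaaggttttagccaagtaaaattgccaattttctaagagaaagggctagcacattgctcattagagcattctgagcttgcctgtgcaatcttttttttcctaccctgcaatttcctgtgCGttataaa
Tubb3: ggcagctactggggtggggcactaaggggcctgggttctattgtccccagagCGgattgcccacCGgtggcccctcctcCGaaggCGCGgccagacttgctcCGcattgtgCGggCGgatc
Ngfr: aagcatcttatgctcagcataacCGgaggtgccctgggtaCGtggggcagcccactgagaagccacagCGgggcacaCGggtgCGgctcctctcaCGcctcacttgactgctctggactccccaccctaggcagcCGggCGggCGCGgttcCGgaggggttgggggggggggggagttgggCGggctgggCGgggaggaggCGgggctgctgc
Pax6 and Dcx differ in CpG content. The 250 bases before the RefSeq start hold 15 CpG in Pax6 and 3 in Dcx, where the median of 32851 promoters is 6 and the middle range between the quartiles is 2 to 16. The same window holds 34 CpG in Map2, 29 in Sox1, 21 in Tubb3, 16 in Ngfr and 15 in Nes. Except in Pax6, these windows run past the GENCODE start and so beyond the sequences shown. Those hold 1 CpG in Dcx, 8 in Tubb3 and 14 in Ngfr. Of the 9 genes 7 had a promoter entry, and Sox3 and Ncam1 had none. Searched on both strands, TTCAGCACC, the left part of the RE1 element through which REST represses neuronal genes, was in none of the 7 genes' windows and in 0.301% of all promoters. GGACAG, the right part of the same element, was in the window of Map2 and in 18.7% of all promoters. TATAAA was in the window of Dcx, where it ends the sequence above, and in 12.4% of all promoters.

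**Figure D1:**
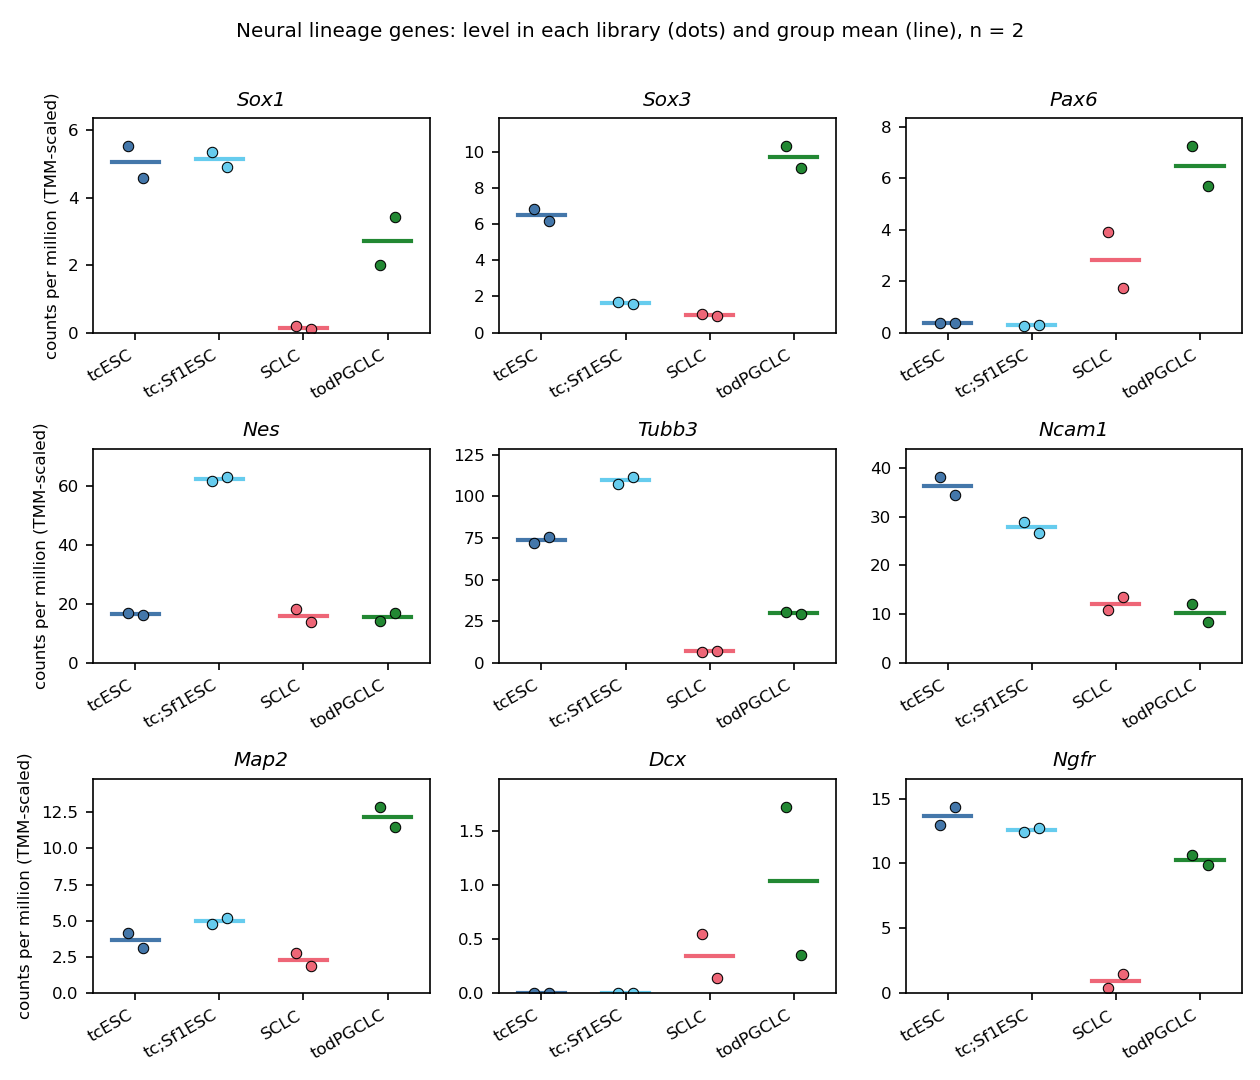
Level of each of the 9 genes in CPM (scaled by TMM, the trimmed mean of M-values), with 1 dot per library and a line at the mean of the 2 libraries of a group; each panel has its own axis from 0. Sox1, Tubb3 and Ngfr were lowest in SCLCs, the SCLC and todPGCLC libraries lay above all ESC libraries for Pax6 and Dcx, and Nes stood out in tc;Sf1ESCs.

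Sox1, a SoxB factor of the first neural plate cells, was at the limit of detection in SCLCs. Its counts were 140 and 141 in tcESCs, 138 and 134 in tc;Sf1ESCs, 5 and 3 in SCLCs and 58 and 96 in todPGCLCs. The SCLC libraries alone were near the floor of 3 counts, and the todPGCLC libraries lay between them and the ESC libraries without overlap. Mean levels were 5.05 ± 0.664, 5.13 ± 0.325, 0.152 ± 0.0624 and 2.72 ± 1.01 CPM in that order of groups (SD, n = 2, as for all levels below). By the quasi-likelihood test of edgeR, with p-values adjusted after Benjamini and Hochberg over all genes, Sox1 fell from tcESCs to SCLCs by 5.02 on the log2 scale (SE 0.324, edgeR adjusted p = 9.30e-06). It was higher in todPGCLCs than in SCLCs by 4.13 (SE 0.440, edgeR adjusted p = 4.06e-05). Between todPGCLCs and tcESCs the difference was -0.89 (SE 0.276, edgeR adjusted p = 0.0201), under the limit of 2-fold that a call required here. Without todPGCLC replicate 2 it was -1.32 and without tcESC replicate 2 it was -1.07, and both of these pass the limits of a call. The ESC groups overlapped, and their difference of 0.02 (SE 0.204) changed sign when single libraries were left out.

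Sox3, the X-linked SoxB factor of pluripotent epiblast and neural progenitors, was lower in tc;Sf1ESCs than in their parent line. Its counts were 173 and 190 in tcESCs, 43 and 44 in tc;Sf1ESCs, 26 and 25 in SCLCs and 298 and 255 in todPGCLCs. The 4 groups did not overlap. Levels ran from 9.70 ± 0.831 CPM in todPGCLCs through 6.50 ± 0.458 in tcESCs and 1.64 ± 0.0432 in tc;Sf1ESCs to 0.959 ± 0.0859 in SCLCs. Sox3 fell from tcESCs to tc;Sf1ESCs by 1.98 on the log2 scale (SE 0.200, edgeR adjusted p = 0.000608), and by 2.75 from tcESCs to SCLCs (SE 0.213, edgeR adjusted p = 2.33e-05). The step from tc;Sf1ESCs to SCLCs, -0.77 (SE 0.233, edgeR adjusted p = 0.0198), was not called. These 3 comparisons share libraries. Sox3 was higher in todPGCLCs than in SCLCs by 3.34 (SE 0.202, edgeR adjusted p = 1.47e-06) and not called against tcESCs, at 0.58 (SE 0.166, edgeR adjusted p = 0.0142).

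Pax6, a homeodomain factor of forebrain, eye and ventral spinal cord progenitors, was higher in SCLCs and todPGCLCs than in ESCs. Its counts were 10 and 11 in tcESCs, 7 and 8 in tc;Sf1ESCs, 100 and 48 in SCLCs and 210 and 160 in todPGCLCs. Both differentiated groups stood above all 4 ESC libraries, and the SCLC libraries differed from each other by more than any other pair of replicates of this gene. Levels were 0.376 ± 0.0261 and 0.282 ± 0.0146 CPM in tcESCs and tc;Sf1ESCs, 2.82 ± 1.55 in SCLCs and 6.48 ± 1.08 in todPGCLCs. Pax6 rose by 2.90 on the log2 scale from tcESCs to SCLCs (SE 0.480) and was higher by 4.10 in todPGCLCs than in tcESCs (SE 0.435). Both differences passed the limits of a call. Over the 4 ESC libraries the mean count of Pax6 did not exceed 10. It entered the fits only through the groups in which it is high, so no p against ESCs is given. The difference of 1.21 between todPGCLCs and SCLCs (SE 0.340, edgeR adjusted p = 0.0115) depended on single libraries. It was 0.72 without SCLC replicate 2 and 1.90 without SCLC replicate 1, and without todPGCLC replicate 1 its adjusted p was 0.0707.

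Nes, the intermediate filament protein of dividing neural progenitors, differed in 1 group only. Its counts were 432 and 501 in tcESCs, 1589 and 1731 in tc;Sf1ESCs, 465 and 387 in SCLCs and 411 and 478 in todPGCLCs. The tc;Sf1ESC libraries stood apart and the other 3 groups overlapped. At 62.6 ± 1.12 CPM in tc;Sf1ESCs against 16.7 ± 0.532 in tcESCs, Nes was higher in the clone by 1.91 on the log2 scale (SE 0.130, edgeR adjusted p = 0.000159), and the median gene of chromosome 3 was higher by 0.197. Nes fell by 1.96 from tc;Sf1ESCs to SCLCs (SE 0.130, edgeR adjusted p = 1.13e-05), to 16.1 ± 3.06 CPM, and stood at 15.6 ± 2.05 CPM in todPGCLCs. Its difference between SCLCs and tcESCs was -0.05 (SE 0.133), between todPGCLCs and tcESCs -0.09 (SE 0.142) and between todPGCLCs and SCLCs -0.04 (SE 0.143). None of these 3 was called, and each changed sign when 1 library was left out. Of 5 genes for partner filaments of nestin 1 was higher and 1 lower in tc;Sf1ESCs than in tcESCs (6.04% and 5.63% of all genes), Vim by 1.88 (SE 0.102, edgeR adjusted p = 6.92e-05) and Synm at -1.36 (SE 0.333, edgeR adjusted p = 0.0198). Between SCLCs and tcESCs, where Nes was not called, 1 of these 5 was higher and 3 lower, against 24.3% and 18.3% of all genes. Des was higher by 3.17 (SE 0.349, edgeR adjusted p = 0.000137). Ina was lower, at -2.23 (SE 0.197, edgeR adjusted p = 4.42e-05), as was Vim, at -1.43 (SE 0.103, edgeR adjusted p = 1.63e-05).

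Ncam1, a homophilic adhesion molecule of the immunoglobulin family, was lower in both differentiated groups than in either ESC group. Its counts were 969 and 1061 in tcESCs, 743 and 730 in tc;Sf1ESCs, 275 and 374 in SCLCs and 347 and 232 in todPGCLCs. The ESC groups did not overlap with each other or with the rest, whereas SCLCs and todPGCLCs overlapped. Levels were 36.4 ± 2.64, 27.8 ± 1.53, 12.1 ± 1.88 and 10.1 ± 2.61 CPM in that order. Ncam1 fell by 1.58 on the log2 scale from tcESCs to SCLCs (SE 0.128, edgeR adjusted p = 2.89e-05) and differed by -1.84 between todPGCLCs and tcESCs (SE 0.178, edgeR adjusted p = 3.84e-05). The difference between todPGCLCs and SCLCs was -0.26 (SE 0.182, edgeR adjusted p = 0.236).

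Ngfr, which binds the neurotrophins, was low in SCLCs and in no other group. Its counts were 329 and 442 in tcESCs, 319 and 348 in tc;Sf1ESCs, 10 and 40 in SCLCs and 308 and 276 in todPGCLCs. Both SCLC libraries were well below all others, and they differed from each other, at 10 against 40. Levels were 13.7 ± 0.984, 12.6 ± 0.238, 0.914 ± 0.739 and 10.2 ± 0.544 CPM. Ngfr fell by 3.87 on the log2 scale from tcESCs to SCLCs (SE 0.390, edgeR adjusted p = 8.71e-05). The fall was 5.11 without SCLC replicate 2 and 3.23 without SCLC replicate 1. Ngfr was higher in todPGCLCs than in SCLCs by 3.46 (SE 0.363, edgeR adjusted p = 3.73e-05) and was not called against tcESCs, at -0.42 (SE 0.280, edgeR adjusted p = 0.226), where the median gene of chromosome 11 stood at 0.516.

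Tubb3, the tubulin isotype that marks young neurons, was well counted in all 4 groups and lowest in SCLCs. Its counts were 1824 and 2320 in tcESCs, 2768 and 3058 in tc;Sf1ESCs, 173 and 207 in SCLCs and 881 and 818 in todPGCLCs. No groups overlapped, and the replicates lay close together. Levels were 73.7 ± 2.46, 109.7 ± 3.06, 7.11 ± 0.461 and 29.8 ± 0.836 CPM. Tubb3 fell by 3.37 on the log2 scale from tcESCs to SCLCs (SE 0.0836, edgeR adjusted p = 1.92e-07) and differed by -3.94 between SCLCs and tc;Sf1ESCs (SE 0.0845, edgeR adjusted p = 1.20e-07). It was lower in todPGCLCs than in tcESCs, at -1.30 (SE 0.0754, edgeR adjusted p = 2.43e-06), and higher in todPGCLCs than in SCLCs by 2.07 (SE 0.0857, edgeR adjusted p = 2.24e-07). The increase of 0.57 from tcESCs to tc;Sf1ESCs (SE 0.0705, edgeR adjusted p = 0.00134) was under 2-fold, and the median gene of chromosome 8, on which Tubb3 lies, was higher by 0.474 in the same comparison.

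Map2, which binds and spaces dendritic microtubules, was highest in todPGCLCs. Its counts were 106 and 96 in tcESCs, 123 and 142 in tc;Sf1ESCs, 70 and 52 in SCLCs and 373 and 321 in todPGCLCs. The todPGCLC libraries stood above the rest and the SCLC libraries below. Levels were 3.65 ± 0.750, 4.99 ± 0.294, 2.31 ± 0.620 and 12.2 ± 0.994 CPM. Map2 was higher in todPGCLCs than in tcESCs by 1.74 on the log2 scale (SE 0.222, edgeR adjusted p = 0.000179) and 5.29-fold higher than in SCLCs (edgeR adjusted p = 2.28e-05). It fell by 1.11 from tc;Sf1ESCs to SCLCs (SE 0.258, edgeR adjusted p = 0.00607), or by 0.86 without SCLC replicate 2, which is under 2-fold. Against tcESCs, SCLCs differed by -0.66 (SE 0.261, edgeR adjusted p = 0.0546).

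Dcx, the microtubule-binding protein of migrating young neurons, had the fewest counts of the 9. There were 0 counts in all 4 ESC libraries, 14 and 4 in SCLCs and 50 and 10 in todPGCLCs. Each of the 4 libraries of differentiated cells was above each ESC library, while SCLCs and todPGCLCs overlapped. Its mean count did not exceed 10, so it was outside the fits. Set against 3 counts per ESC library, the SCLC level of Dcx was at least 3.08-fold higher relative to tcESCs. For todPGCLCs the same bound was at least 10.2-fold higher. The bound rested on 1 library in each group, since it was 1.27-fold without SCLC replicate 1 and 3.49-fold without todPGCLC replicate 1. Dcx enters a fit with a looser filter only through the groups in which it is high, so no p is given for it.

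**Figure D2:**
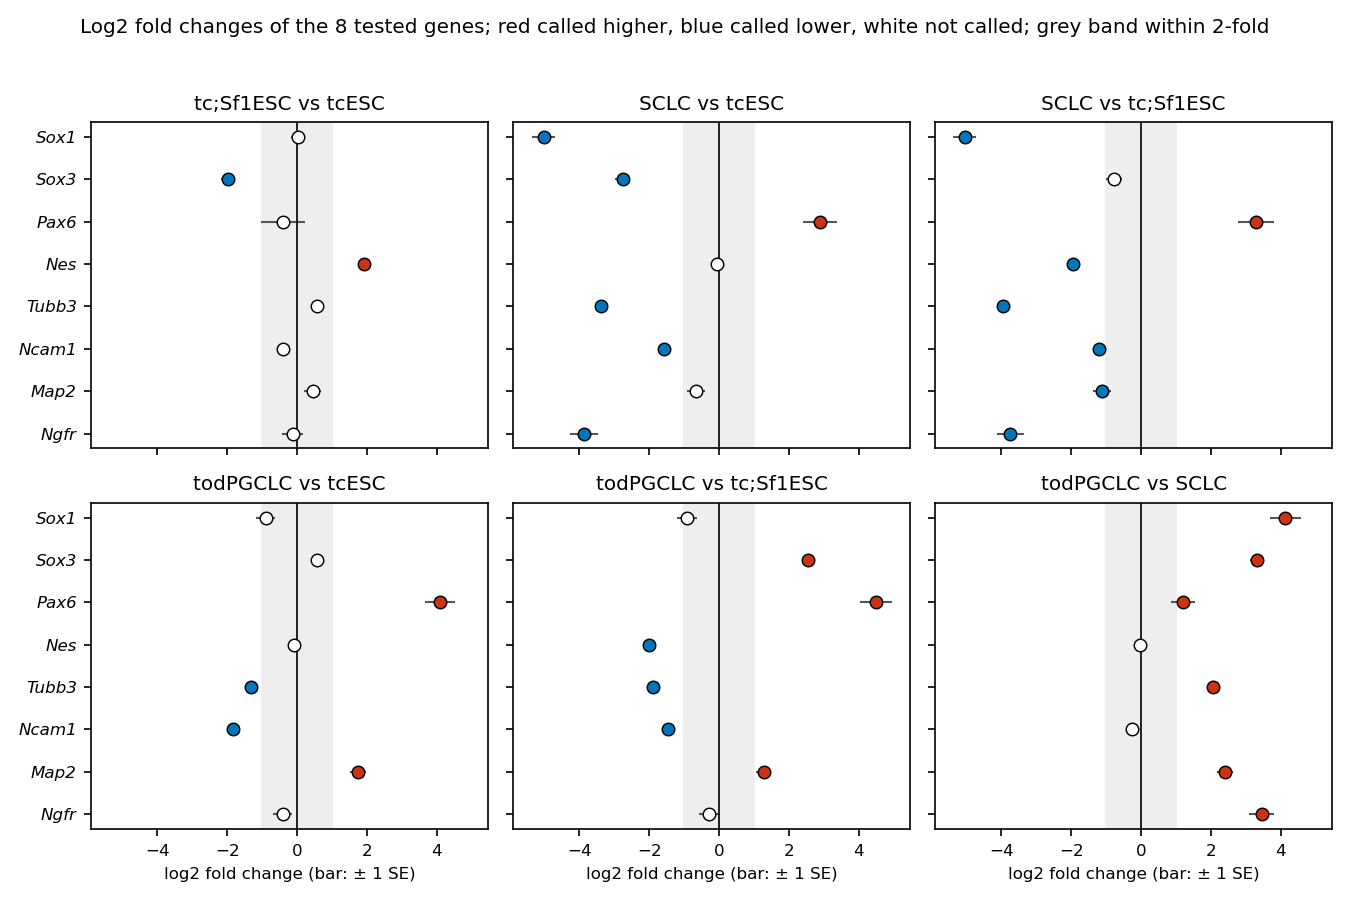
Log2 fold change (x axis) of the 8 tested genes in the 6 comparisons, with bars of 1 SE; filled points passed a fold change above 2 and an edgeR adjusted p under 0.05, red higher and blue lower in the group named first, and the grey band spans a change of less than 2-fold. SCLCs stood lower than tcESCs in 5 genes and higher in 1, and todPGCLCs stood higher than SCLCs in 6 and lower in 0.

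A gene was called with a fold change above 2 and an adjusted p under 0.05, and the count of these 8 genes is set beside the share of all tested genes that passed the same limits. Pax6 passed the filter only through the differentiated groups, so the filter favoured its higher calls against ESCs, which are included in the counts below. Between tc;Sf1ESCs and tcESCs, Nes was called higher and Sox3 lower, 2 of 8 genes against 11.7% of the 16481 genes tested (6.04% higher and 5.63% lower). Pax6, Map2, Ncam1, Ngfr, Sox1 and Tubb3 were not called. In this comparison the 2 libraries of the clone stand for 1 clone, so the transgene and the clone cannot be told apart.

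Between SCLCs and tcESCs, Pax6 was called higher and Sox1, Sox3, Tubb3, Ncam1 and Ngfr lower, 6 of 8 genes against 42.7% of all genes tested. In the lower direction alone the background was 18.3% and in the higher direction 24.3%. The median log2 fold change of the 8 genes was -2.17, against 0.0459 over all genes. In bulk RNA, fewer cells that express a gene and less of its RNA in each cell cannot be told apart. SCLCs against their direct parent, the tc;Sf1ESCs, gave Pax6 higher and Sox1, Nes, Tubb3, Ncam1, Map2 and Ngfr lower, 7 of 8 genes against 42.2% of all genes tested (24.1% higher and 18.1% lower). Of the falls, those of Map2 and Ncam1 (-1.19) did not pass a test against a 2-fold change, with adjusted p of 0.363 and 0.0806 by edgeR's glmTreat.

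The todPGCLCs were compared with each of the other groups in a fit of all 8 libraries over 16707 genes. Against tcESCs, Pax6 and Map2 were called higher and Tubb3 and Ncam1 lower, 4 of 8 genes against 29.4% of all genes tested (18.1% higher and 11.2% lower). Against tc;Sf1ESCs, Sox3, Pax6 and Map2 were called higher and Nes, Tubb3 and Ncam1 lower, 6 of 8 genes against 32.7% (19.4% higher and 13.3% lower). Sox3 was higher by 2.56 (SE 0.188, edgeR adjusted p = 6.80e-06) in that comparison. Against SCLCs, Sox1, Sox3, Pax6, Tubb3, Map2 and Ngfr were called higher and 0 genes lower, 6 of 8 genes against 38% of all genes tested (18.5% higher and 19.5% lower). Ncam1 and Nes were not called.

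The median gene moved by chromosome in several comparisons. Chromosome 8, with Sox1 and Tubb3, had a median log2 fold change of 0.474 between tc;Sf1ESCs and tcESCs. In SCLCs it stood at 0.576 against tcESCs and 0.0395 against tc;Sf1ESCs. In todPGCLCs it stood at -0.0324 against tcESCs, -0.539 against tc;Sf1ESCs and -0.543 against SCLCs. Relative to that median, Tubb3 differed by 0.10 between the ESC groups, by -3.94 between SCLCs and tcESCs and by 2.61 between todPGCLCs and SCLCs. Sox1 differed by -0.45, -5.60 and 4.68 in the same order. Chromosome 11, with Ngfr, was shifted only in the comparisons of todPGCLCs, by 0.516, 0.471 and 0.529 against tcESCs, tc;Sf1ESCs and SCLCs, and relative to it Ngfr differed by -0.93, -0.76 and 2.93. The directions of all falls and rises called above for these 3 genes were kept relative to their chromosomes.

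**Figure D3:**
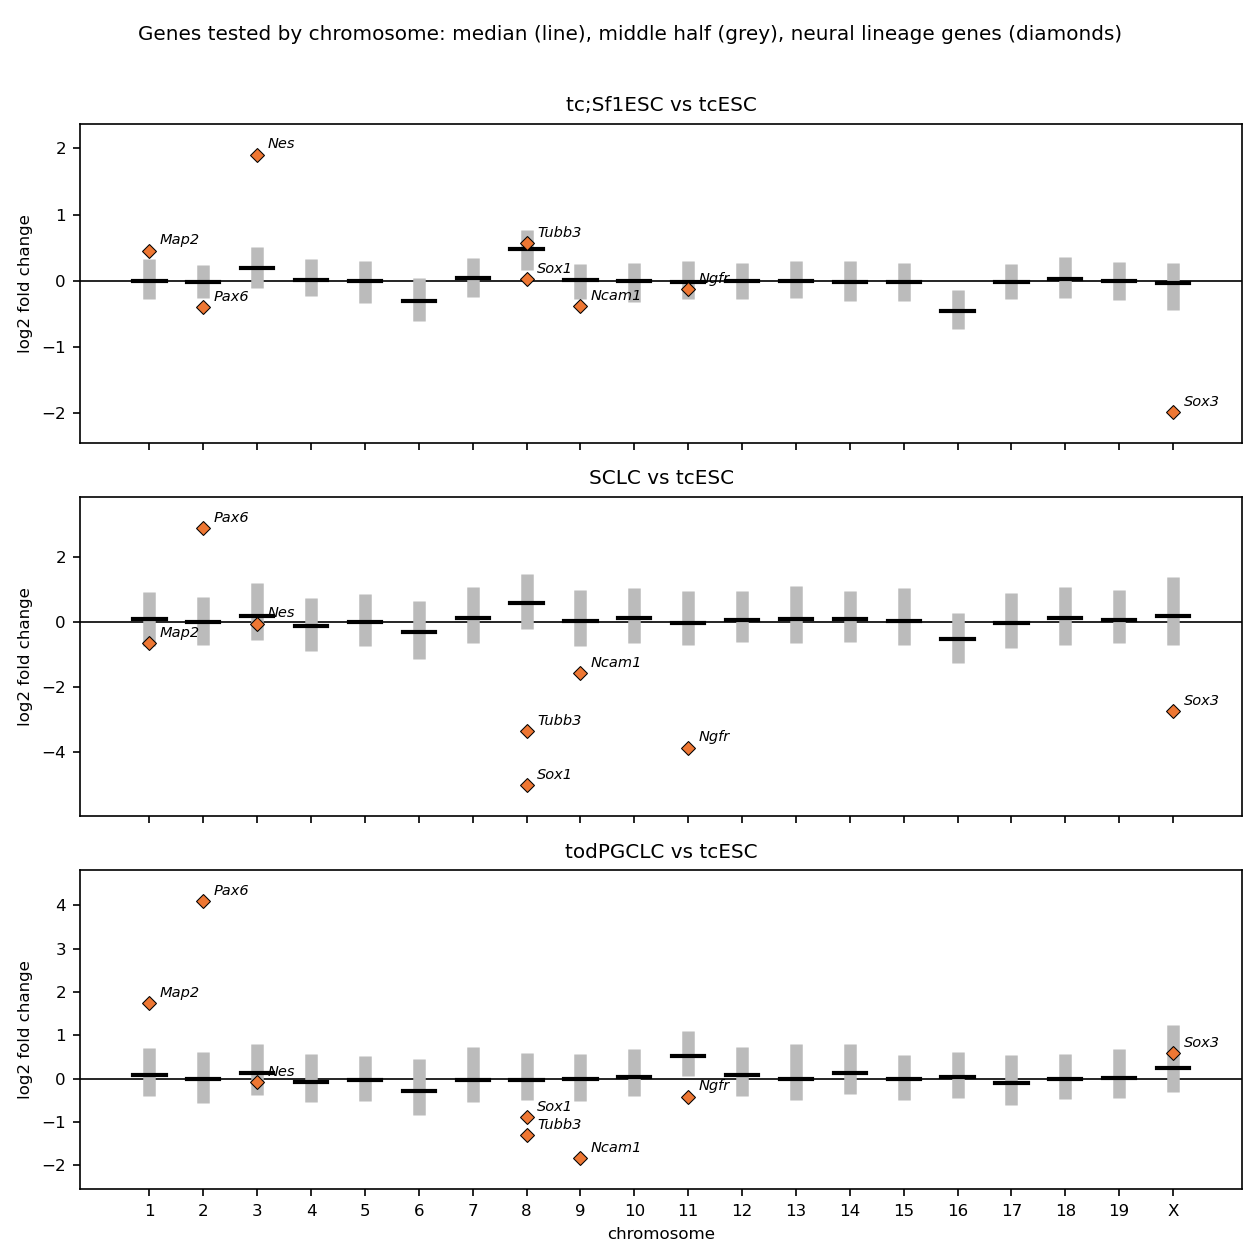
Log2 fold change (y axis) by chromosome for the genes tested in 3 comparisons, with a black line at the median and a grey bar over the middle 50% of genes, and diamonds for the 8 neural lineage genes tested. Tubb3 lies at 0.57 beside a chromosome 8 median of 0.474 between the ESC groups, whereas in SCLCs Sox1, Tubb3, Ngfr and Sox3 lie far outside the grey bars.

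Levels per exon length, as TPM (length-scaled shares of all transcripts, computed here from the counts), allow the genes to be ranked against each other. Tubb3 led in each group, at 145 ± 3.51 TPM in tcESCs, 207 ± 4.64 in tc;Sf1ESCs, 13.9 ± 0.912 in SCLCs and 61.1 ± 1.88 in todPGCLCs, and Dcx was last in each. In tcESCs Ncam1 (15.5 ± 1.26 TPM), Ngfr (14.6 ± 0.918 TPM) and Sox3 (11.6 ± 0.923 TPM) followed Tubb3. In tc;Sf1ESCs Nes took the next place at 34.3 ± 0.430 TPM. In SCLCs the gap behind Tubb3 closed to Nes at 9.14 ± 1.74 TPM and Ncam1 at 5.10 ± 0.794 TPM, and Sox1 dropped to 0.115 ± 0.0471 TPM. In todPGCLCs Sox3 was next to Tubb3 at 18.0 ± 1.59 TPM. Pax6 and Map2, although higher there than in tcESCs, were at 2.12 ± 0.361 and 2.83 ± 0.239 TPM.

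The order of the groups differed from gene to gene. Sox1, Tubb3, Ngfr, Sox3 and Map2 had SCLCs in last place, and in each of these but Sox3 and Map2 the next group up was called against them. Pax6 and Dcx had the 2 ESC groups in the last places. Sox3, Pax6, Map2 and Dcx were highest in todPGCLCs, Sox1, Nes and Tubb3 in tc;Sf1ESCs, and Ncam1 and Ngfr in tcESCs. The highest group and the next were not called against each other for Sox1, Tubb3, Ncam1 and Ngfr, where both are ESC groups, or for Sox3 (todPGCLCs and tcESCs). For Dcx the highest groups, todPGCLCs and SCLCs, overlapped and were not tested. The highest group was called against the next for Pax6, Nes and Map2.

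Wider lists of neural genes were counted in the same fits, and some of them contain genes of the set itself. In SCLCs against tcESCs, 18.3% of all genes were called lower and 24.3% higher. The neuronal cytoskeleton had 9 genes lower and 0 higher of 14 tested, with a median log2 fold change of -2.19 against 0.0459 for all genes. Stmn2, a regulator of growing axons, fell by 6.03 on the log2 scale (SE 0.224, edgeR adjusted p = 8.72e-07), and Stmn3, a relative of it, by 4.91 (SE 0.285, edgeR adjusted p = 5.72e-06). Of the SoxB factors 3 of 4 tested were lower, against the same shares, Sox2 with Sox1 and Sox3, which belong to the set itself. Sox2, which also maintains pluripotency, fell by 2.86 (SE 0.419, edgeR adjusted p = 0.000615).

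Other neural lists moved in both directions in SCLCs. Of 18 neural plate and regional factors, 7 were higher and 9 lower than in tcESCs, and the counts of these lists stand against 24.3% higher and 18.3% lower of all genes. Emx2, Zic1, Six3 and Pax6 of this list, and Syp of the synapse list, passed the filter only through SCLCs, where they are high. The filter thus favoured higher calls for them. Emx2, a homeobox gene of forebrain and of the urogenital system, had 266 and 430 counts in SCLCs and 0 in all 4 ESC libraries. Its level in SCLCs was at least 115-fold higher relative to tcESCs. Olig2, a factor of motor neuron and oligodendrocyte progenitors, had 2307 and 2844 counts in tcESCs and 11 and 3 in SCLCs. In tc;Sf1ESCs, the direct parent of SCLCs, Olig2 had 245 and 247 counts. It was thus already called lower there than in tcESCs (edgeR adjusted p = 5.09e-05). Of 11 proneural genes 3 were higher and 4 lower, with the Notch ligand Dll1 higher by 4.37 (SE 0.343, edgeR adjusted p = 2.46e-05) and the neurogenic factor Neurod1 at 1 and 0 counts against 62 and 62. Of 8 adhesion genes 2 were higher, among them Nrcam, and 4 lower, among them N-cadherin (Cdh2), which fell by 2.98 (SE 0.138, edgeR adjusted p = 2.10e-06). Of 7 synapse genes 3 were higher and 1 lower.

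Among the partners of Ngfr, neurotrophins and their receptors differed in both directions in SCLCs. Of 8 genes tested in this list 4 were higher and 3 lower than in tcESCs, against the same 24.3% and 18.3% of all genes. Ntf3 and Ntrk2 passed the filter only through the differentiated groups, so the filter favoured higher calls for them against ESCs. Ntrk2, the receptor of BDNF, had 8 and 8 counts in tcESCs and 311 and 227 in SCLCs, a rise of 5.13 (SE 0.359, edgeR adjusted p = 1.40e-05). Ntrk3, the receptor of neurotrophin 3, had 77 and 76 counts in tcESCs and 1 and 1 in SCLCs. In todPGCLCs against tcESCs 4 were higher and 2 lower of 8, against 18.1% and 11.2% of all genes, with Ntrk2 higher by 3.35 (SE 0.361, edgeR adjusted p = 6.90e-05).

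In todPGCLCs against tcESCs, 6 of 11 proneural genes were higher and 0 lower, and 5 of 10 synapse genes were higher and 0 lower, against 18.1% of all genes higher and 11.2% lower. Only 7 of these 10 synapse genes passed the filter without the todPGCLC libraries. Rbfox3, Snap25 and Gad2 entered through the group in which they are high, so the filter favoured higher calls for them. The neural crest and glia list ran the other way, with 2 higher and 4 lower of 7 and a median log2 fold change of -1.51. Elavl3, a neuronal RNA-binding protein, was higher by 3.33 (SE 0.334, edgeR adjusted p = 4.68e-05). Gad1, the enzyme that makes GABA, had 22 and 31 counts in tcESCs and 1527 and 1533 in todPGCLCs, a difference of 5.83 (SE 0.285, edgeR adjusted p = 9.95e-07). Of 19 neural plate factors 6 were higher and 4 lower, led by Otx2, a factor of anterior neural plate and of primed epiblast, at 4.57 (SE 0.175, edgeR adjusted p = 3.57e-07). Pax3, Pax6, Zic1, Six3 and Emx2 of this list passed the filter only through the differentiated groups. The neuronal cytoskeleton was split, with 4 higher and 5 lower of 14. The neurofilament gene Ina was higher by 1.94 (SE 0.187, edgeR adjusted p = 3.81e-05), and Nefm had 3952 and 4155 counts in tcESCs and 179 and 91 in todPGCLCs.

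**Figure D4:**
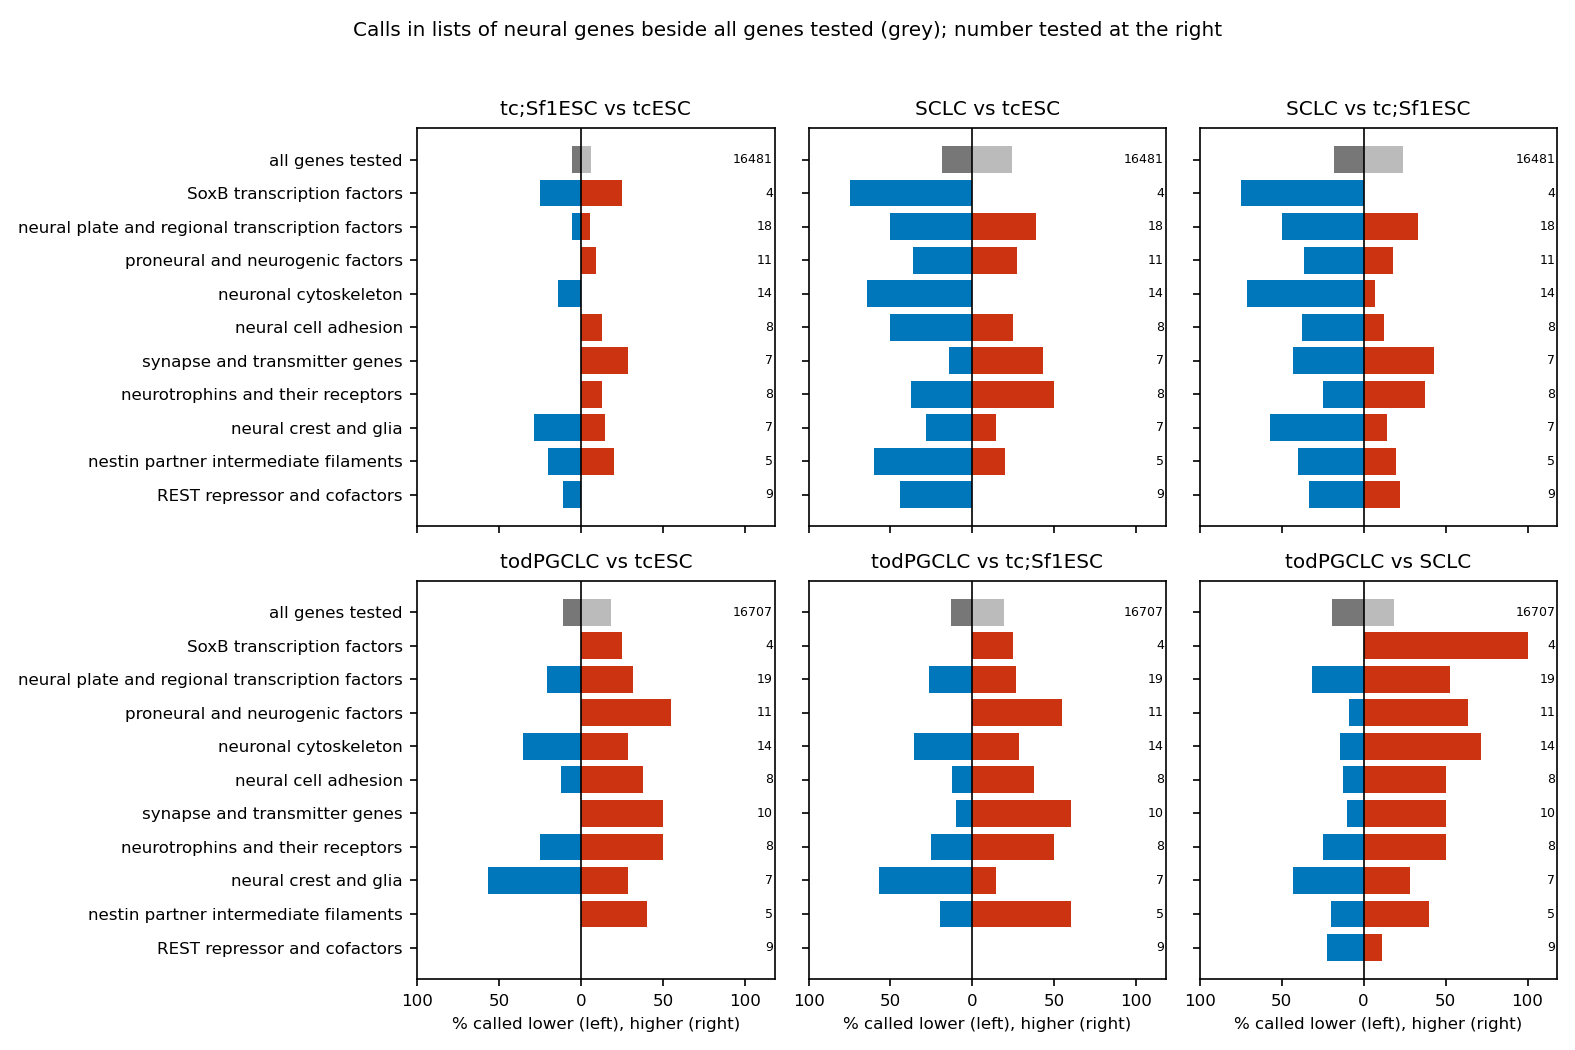
Percentage of the tested genes of each neural list that were called lower (left, blue) or higher (right, red) in the group named first in each of the 6 comparisons, with all genes tested in grey and the number tested at the right of each panel. The neuronal cytoskeleton was lower in 9 of 14 genes in SCLCs against tcESCs and higher in 10 of 14 in todPGCLCs against SCLCs.

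Between tc;Sf1ESCs and tcESCs, where 11.7% of all genes were called, the neural lists held 1 to 3 calls each. In the neural plate list 1 gene was higher and 1 lower of 18, in the proneural list 1 was higher and 0 lower of 11, and in the cytoskeleton list 0 were higher and 2 lower of 14. In the SoxB list 1 was higher and 1 lower of 4, in the synapse list 2 were higher and 0 lower of 7, and in the neural crest and glia list 1 was higher and 2 lower of 7. The cytoskeleton genes were Mapt (tau), which fell by 1.65 (SE 0.0953, edgeR adjusted p = 8.94e-05), and Gap43, with 35 and 53 counts in tcESCs and 1 and 0 in tc;Sf1ESCs. The lower gene of the neural plate list was Olig2, with 2307 and 2844 counts in tcESCs and 245 and 247 in tc;Sf1ESCs. Sox21, a SoxB relative of Sox3, was higher by 1.44 (SE 0.121, edgeR adjusted p = 0.000350). Gad1 was higher by 3.03 (SE 0.352, edgeR adjusted p = 0.00105).

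REST is the repressor that keeps neuronal genes off outside neurons, and it acts with the corepressors RCOR1 and RCOR2, SIN3A and histone deacetylases. Rest had 8773 and 11005 counts in tcESCs, 8661 and 9293 in tc;Sf1ESCs, 3913 and 3422 in SCLCs and 8281 and 6399 in todPGCLCs. It fell by 1.34 from tcESCs to SCLCs (SE 0.104, edgeR adjusted p = 2.32e-05), where 4 of 9 genes of the list were lower and 0 higher, against 18.3% and 24.3% of all genes. Against tc;Sf1ESCs 2 of 9 were higher in SCLCs and 3 lower, where 24.1% and 18.1% of all genes were, and Rcor1 was higher by 1.32 (SE 0.0689, edgeR adjusted p = 3.60e-06). In todPGCLCs against tcESCs Rest differed by -0.45 (SE 0.123, edgeR adjusted p = 0.0112), under 2-fold.

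Over the 8 libraries, the genes whose log2 CPM ran most like each member were picked from 14291 genes and are given as a description, since the 8 points are 4 pairs of replicates. The closest to Sox1 was Mettl18 (Pearson r = 0.998), to Sox3 Srbd1 (r = 0.995), to Pax6 Gas1 (r = 0.996) and to Nes Tnni1 (r = 0.993). Tubb3 ran closest to Nucks1 (r = 0.998), Ncam1 to Plekhg1 (r = 0.996), Map2 to Lmtk2 (r = 0.990) and Ngfr to Sfpq (r = 0.994). None of these 8 is a gene of the set or of the neural lists.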

How the data were processed

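RNA from 8 samples in 4 groups of 2 was analysed. Per the labels and methods, poly-A RNA gave strand-specific libraries sequenced as paired 50-base reads, which the authors trimmed with Trim Galore and aligned to GRCm38 with STAR 2.4.0. The authors deposited HTSeq read counts per Ensembl gene, not normalized. Reads set aside as ambiguous or not unique (2.96% to 3.14% and 20.5% to 27.5% of reads) are not in the gene counts. Of 46078 IDs, 45229 were named with GENCODE M21.

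Genes with a mean count above 10 were tested with edgeR 4.0.16 under R 4.3.3 (TMM, quasi-likelihood test, Benjamini-Hochberg adjustment). Comparisons among tcESCs, SCLCs and tc;Sf1ESCs used 1 fit of their 6 libraries, and those of todPGCLCs a fit of all 8. The tests were tested on simulated data. The members and the 16 gene lists were chosen with earlier results of these data known. Every member is named, and from each other neural list up to 2 of the largest called changes per direction and comparison, among genes of at least 1 CPM on average. The values of Rest in todPGCLCs, and of single Sertoli cell genes, were added after they were seen. No replicate pair of libraries was identical over all genes, although single genes had equal counts. P-values measure the spread between these libraries.

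Alternatives were RLE size factors, filterByExpr, every gene with at least 1 count, other sets of libraries, DESeq2 1.42.0, glmTreat, the replicate block, each library left out, library totals for the level orders and, added after the data were seen, DESeq2 on all genes with any count.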

Additional observations from a re-analysis of the deposited data

How the results depend on the processing

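The number of genes called among the 9 was 2 under every alternative between tc;Sf1ESCs and tcESCs, 6 to 7 between SCLCs and tcESCs, 5 to 8 between SCLCs and tc;Sf1ESCs, 4 to 5 between todPGCLCs and tcESCs, 5 to 7 between todPGCLCs and tc;Sf1ESCs and 5 to 7 between todPGCLCs and SCLCs. The upper ends of 8, 7 and 5 were reached in fits that took in Dcx, which enters them through the groups in which it is high. Between todPGCLCs and the ESC groups, Sox1 also gained a call when single libraries were left out. The order of the groups was kept for 8 of 9 genes with library totals in place of TMM, where SCLCs and todPGCLCs changed places for Nes. Of the fold changes of single genes under the alternatives, 583 kept their direction and their call, 6 reversed, 3 gained a call and 7 lost one. The reversals came with single libraries left out, where Sox1 ran from -0.11 to 0.16 between tc;Sf1ESCs and tcESCs, and Nes from -0.24 to 0.13 between SCLCs and tcESCs, from -0.22 to 0.0444 between todPGCLCs and tcESCs and from -0.23 to 0.16 between todPGCLCs and SCLCs. Sox1 ran from -1.35 to -0.57 between todPGCLCs and tc;Sf1ESCs. By glmTreat against 2-fold, Map2 between todPGCLCs and tc;Sf1ESCs had an adjusted p of 0.137 and Pax6 between todPGCLCs and SCLCs of 0.331. A group left with 1 library was assumed to vary like the others. The cause of these changes was not tested. Over all genes, 1923 were called between tc;Sf1ESCs and tcESCs but 594 by glmTreat and 1119 to 1240 with a library left out, and 4906 between todPGCLCs and tcESCs but 3078 by glmTreat.

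The libraries share replicate numbers, but the deviations of same-numbered libraries correlated between groups by only -0.0259 to 0.0624, so the numbers do not pair them. With the replicate block, the genes called among the 8 were 2, 6, 7, 4, 6 and 6 in the 6 comparisons, the same numbers as without it. Depth limits Dcx and, in SCLCs, Sox1, whose counts lie near 3.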
